A study of Mus musculus with 2 samples.

Results

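The miR-17-92 cluster is a group of 6 microRNA (miRNA) genes, Mir17, Mir18, Mir19a, Mir20a, Mir19b-1 and Mir92-1, that are cut from 1 primary transcript. The 6 genes were chosen by their position in the host gene Mir17hg, and each of them had a row among the 1973 miRNA gene rows of the count files. Small RNA of the embryonic facial prominence, the tissue that forms the face and jaws, had been sequenced in mouse strain B6NCrl at embryonic day 14.5. There was 1 untreated group of mixed sex with 2 biological replicates, so the values describe the level of each gene in this tissue and the spread between its libraries. The labels call each sample a single face from 1 pup, collected on different days, yet also give the sex as pooled. Whether each library is 1 embryo is therefore not settled, and day of collection and replicate cannot be told apart.

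A miRNA is cut from a hairpin in a longer transcript, first by Drosha in the nucleus and then by Dicer, and the mature strand guides Argonaute proteins to messenger RNAs. Bases 2 to 8 of the mature strand, the seed, set most of the pairing with targets, so miRNAs with the same seed repress largely the same genes. The miR-17-92 cluster is known for growth control: Myc activates it, and its miRNAs repress cell cycle inhibitors such as Cdkn1a and the cell death gene Bcl2l11. In mouse embryos its loss impairs development of the lung and heart, and it is known for a role in lip and palate formation. In humans, deletion of its host gene causes Feingold syndrome, with defects of the skeleton and skull.

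On assembly mm10 the cluster lies on chromosome 14, plus strand. Mir17hg, annotated as a long intergenic noncoding RNA gene, spans 115042879 to 115046727, and GENCODE M21 places all 6 hairpins inside an exon of its transcript. The first hairpin begins 792 bases after the gene start, and the 6 hairpins together take up 836 bases. In transcript order, Mir17 (ENSMUSG00000065508.1) spans 115043671 to 115043754, Mir18 (ENSMUSG00000065403.1) 115043851 to 115043946 and Mir19a (ENSMUSG00000065416.1) 115044000 to 115044081. They are followed by Mir20a (ENSMUSG00000065442.1) at 115044157 to 115044263, Mir19b-1 (ENSMUSG00000076256.1) at 115044305 to 115044391 and Mir92-1 (ENSMUSG00000076062.1) at 115044427 to 115044506. The gaps between neighbouring hairpins ran from 35 to 96 bases.

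The mature strands for which these genes are best known are shown 5′ to 3′ because they group the 6 genes into 4 seeds, and because they set which reads could be placed at a single gene. Sequences are from RefSeq on GRCm38.p6, where all 6 genes were found, and capitals mark the seed.
miR-17-5p of Mir17: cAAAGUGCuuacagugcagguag
miR-20a-5p of Mir20a: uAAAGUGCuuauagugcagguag
miR-18a-5p of Mir18: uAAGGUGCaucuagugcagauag
miR-19a-3p of Mir19a: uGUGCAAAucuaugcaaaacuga
miR-19b-3p of Mir19b-1: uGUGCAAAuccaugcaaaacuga
miR-92a-3p of Mir92-1: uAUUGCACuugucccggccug

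Counting positions from 1 at the 5′ end, miR-17-5p and miR-20a-5p differ by C1U and C12U, and miR-19a-3p and miR-19b-3p by U11C alone. Among the 2202 miRNA hairpins of GENCODE M21, the whole sequences of miR-17-5p, miR-18a-5p, miR-19a-3p and miR-20a-5p each occur in 1 hairpin. The closest other hairpin to miR-17-5p is Mir106a, which differs by U10A, and the closest to miR-18a-5p is Mir18b, which differs by A18U and A20U. The whole of miR-19b-3p also occurs in Mir19b-2 and the whole of miR-92a-3p also in Mir92-2, both of a related cluster on the X chromosome. These shared strands are shown with 5 bases on either side, the shared mature strand in capitals.
Mir92-1: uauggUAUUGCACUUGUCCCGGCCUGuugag
Mir92-2: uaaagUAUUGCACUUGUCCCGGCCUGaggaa
Mir19b-1: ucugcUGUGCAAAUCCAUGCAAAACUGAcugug
Mir19b-2: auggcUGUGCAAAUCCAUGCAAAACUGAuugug

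The flanks of the miR-92a strand agree over 1 base before it and over 0 bases after it, and those of miR-19b over 2 bases before and 0 after. A read that lies within the mature strand fits 2 hairpins equally well, while a read that runs 1 base past its 3′ end fits 1 of them best. In the layout of the deposited counts, reads with several places are summed in a row of their own, which took 29.8% of the reads of replicate 1 and 28.5% of those of replicate 2. The counts of Mir92-1 and Mir19b-1 therefore leave out reads that lie within the shared strand. The counts are per gene, so the 2 strands of a hairpin, and reads with extra or missing bases, cannot be told apart.

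The whole libraries were as follows. Replicate 1 held 2719153 reads on the gene strand of miRNA genes (48.4% of 5617037 reads) and replicate 2 held 6602050 (49.3% of 13380839). Levels are given in CPM, counts per 1000000 of these gene-strand totals, not divided by length, since a read covers a whole mature miRNA. The limit that a count of 0 sets, 3 counts, equals 1.10 CPM in replicate 1 and 0.454 CPM in replicate 2. Intervals and floors cover counting error only, because molecular identifiers are not described. Markers of facial tissue were present: cartilage markers Mir140 and Mir455 summed to 43454 and 41703 CPM in replicates 1 and 2, and all 7 epithelial and all 4 mesenchymal marker genes were detected. Detected here means at least 1 count in either library, which held for 717 of the 1973 gene rows.

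The miR-17-92 genes were all detected in the embryonic face, and Mir17 was among its more abundant miRNA genes. The 6 genes summed to 69602 counts in replicate 1 and 113108 counts in replicate 2. These were 25597 and 17132 CPM, a mean of 21365 ± 5985 CPM (SD, n = 2). Of the gene-strand counts of replicate 1 they held 2.56%, with a 95% Wilson interval of 2.54 to 2.58, and of those of replicate 2 they held 1.71%, with an interval of 1.70 to 1.72. All of these reads lay on the strand of the genes, with 0 counts on the opposite strand of any member in either library. In a bulk sample, fewer cells that make a miRNA and less miRNA per cell cannot be told apart.

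**Figure D1:**
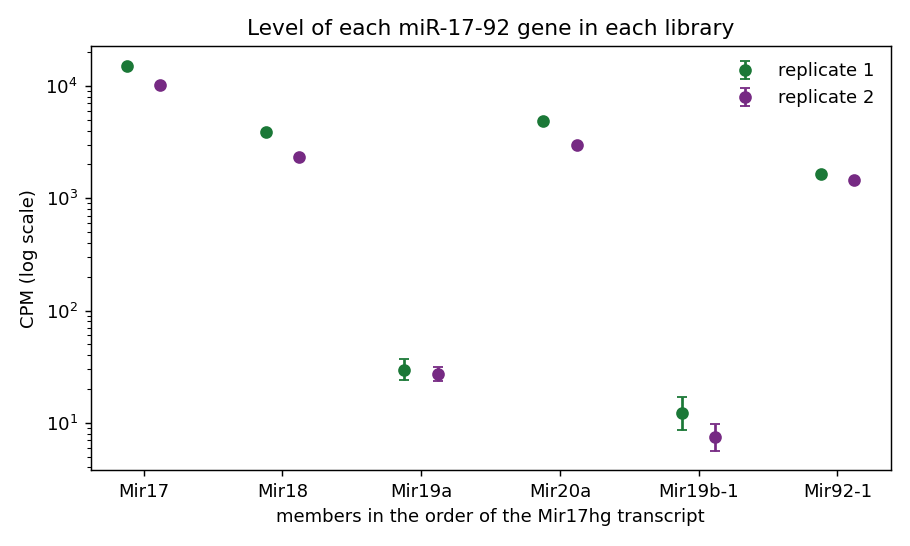
Level of each miR-17-92 gene in CPM (log axis) in replicate 1 and replicate 2, in transcript order, with 95% Wilson intervals. Mir17, Mir18, Mir20a and Mir92-1 lie at 1468 CPM or above in both libraries, while Mir19a and Mir19b-1 lie at 29.8 CPM or below.

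Although 1 transcript carries all 6 hairpins, Mir17 exceeded the lowest member, Mir19b-1, 1249-fold in replicate 1 and 1384-fold in replicate 2. Mir17, whose miR-17-5p strand carries the AAAGUGC seed and is known to repress E2f1 and Cdkn1a, was highest. It had 41207 counts in replicate 1 and 67839 in replicate 2, or 15154 and 10275 CPM, a mean of 12715 ± 3450 CPM. By level it ranked 20 among all gene rows in replicate 1 and 25 in replicate 2. Mir20a, which has the same seed, had 13281 and 19850 counts, or 4884 and 3007 CPM, a mean of 3945 ± 1328 CPM. Mir17 stood 3.10-fold above Mir20a in replicate 1 and 3.42-fold in replicate 2, more than the spread of either gene between the libraries.

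Mir18 carries miR-18a, with the AAGGUGC seed. Its hairpin is known from human cells to need the RNA-binding protein hnRNP A1 for efficient Drosha cleavage. It had 10535 counts in replicate 1 and 15500 in replicate 2, or 3874 and 2348 CPM, a mean of 3111 ± 1079 CPM. Mir20a was 1.26-fold and 1.28-fold above Mir18 within the libraries, so the order of the 2 genes was the same in both. Their ranges across the libraries overlapped, because both genes were higher in replicate 1, with log2 ratios to replicate 2 of 0.70 and 0.72. Mir92-1 carries miR-92a, with the AUUGCAC seed, a miRNA known for restraint of blood vessel growth. It had 4465 and 9691 counts, or 1642 and 1468 CPM, a mean of 1555 ± 123 CPM. Its ranks among all genes were 92 in replicate 1 and 87 in replicate 2, and both of its values lay below both values of Mir18. The counts of Mir92-1 leave out reads within the strand shared with Mir92-2. Its rank, and its shares and folds given below, therefore rest on the other reads.

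The miR-19 genes were by far the lowest members. Mir19a carries miR-19a, with the GUGCAAA seed, known for its part in mouse lymphoma. It had 81 counts in replicate 1 and 179 in replicate 2, or 29.8 CPM (95% Wilson interval 24.0 to 37.0) and 27.1 CPM (23.4 to 31.4). Mir17 exceeded it 509-fold in replicate 1 and 379-fold in replicate 2. Mir19b-1, with the same seed, had 33 and 49 counts, or 12.1 CPM (8.64 to 17.0) and 7.42 CPM (5.61 to 9.81). Both libraries placed it lowest of the 6, below Mir19a by 2.45-fold in replicate 1 and by 3.65-fold in replicate 2.

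The shared strand touches these low values unequally. The whole of miR-19b-3p lies in 2 hairpins, whereas the whole of miR-19a-3p lies in 1, although it differs from miR-19b-3p by a single base. Mir92-1, whose main strand is also shared with an X-linked gene, stood 54.7-fold above Mir19a by mean CPM. How read placement, hairpin cleavage, adapter ligation and stability of the mature strands add to the range of levels was not tested.

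The order of the 6 genes was the same in both libraries, namely Mir17, Mir20a, Mir18, Mir92-1, Mir19a and Mir19b-1. Of the 5 neighbouring pairs in this order, Mir20a and Mir18 were the only pair whose ranges overlapped. The genes next to the members in the order of all genes were unrelated miRNAs in most cases, such as Mir214 above and Mir206 below Mir17, and Mir28a above and Mir125b-1 below Mir92-1. Relatives from other clusters stood next above Mir20a (Mir106b) and next below Mir19b-1 (Mir18b).

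With 2 libraries, likeness to Mir17 can be judged only by level. By the larger of the 2 absolute differences in log2(CPM + 1), the 5 nearest genes were Mir214 (0.11), Mir127 (0.27), Mir30e (0.30), Mir206 (0.40) and Mir429 (0.48). Mir214, a miRNA of mesenchyme, had 16135 CPM in replicate 1 and 11066 CPM in replicate 2, a likeness to Mir17 that the rule itself fixes. Of the 5, Mir206 (11447 and 13094 CPM) and Mir429 (10828 and 11895 CPM) were lower in replicate 1, unlike Mir17.

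The make-up of the cluster was similar in both libraries, with a small shift toward Mir92-1 in replicate 2 that does not depend on how the libraries are scaled. Mir17 held 59.2% of the 6-gene sum (95% Wilson interval 58.8 to 59.6) in replicate 1, against 60.0% (59.7 to 60.3) in replicate 2. Mir20a held 19.1% (18.8 to 19.4) and 17.5% (17.3 to 17.8), and Mir18 15.1% (14.9 to 15.4) and 13.7% (13.5 to 13.9). Mir92-1 held 6.42% in replicate 1 (6.24 to 6.60) and 8.57% in replicate 2 (8.41 to 8.73). Mir19a and Mir19b-1 together held 0.164% and 0.202%. By counting error alone the intervals of Mir20a, Mir18, Mir92-1 and Mir17 did not overlap between the libraries, but 2 libraries give no estimate of how such shares vary from embryo to embryo beyond these values.

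**Figure D2:**
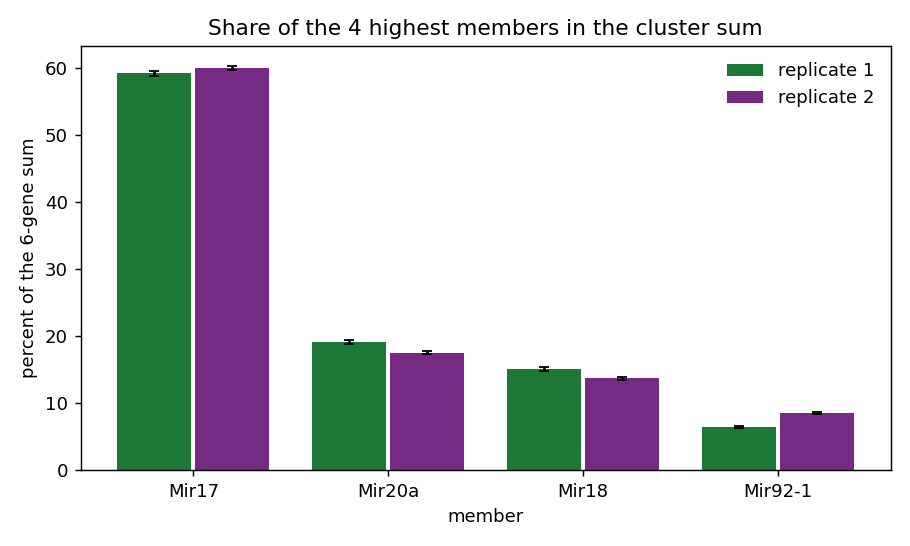
Percent of the 6-gene sum held by the 4 highest members in replicate 1 and replicate 2, with 95% Wilson intervals. Mir17 holds about 60% in both libraries, and the bar of Mir92-1 is higher in replicate 2 (8.57%) than in replicate 1 (6.42%).

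Set against Mir17 inside each library, Mir92-1 had a log2 ratio of -3.21 in replicate 1 and -2.81 in replicate 2. Replicate 1 minus replicate 2 of this log2 ratio was -0.40, with a 95% counting interval of -0.45 to -0.34. Mir19a moved in the same direction, by -0.42 (-0.80 to -0.05). Mir18 (0.16, 0.12 to 0.20) and Mir20a (0.14, 0.10 to 0.18) moved the other way by less. For Mir19b-1 the interval of -0.49 to 0.79 spanned 0.

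The cluster was higher in replicate 1 than in replicate 2, mainly through Mir17, Mir20a and Mir18. For each of the 372 genes with a mean of at least 10 counts, the libraries were compared by a two-sided exact binomial test, with Benjamini-Hochberg adjustment over all of them. The test knows counting error only, and it compares these libraries, not conditions. Scaled to the gene-strand totals, 4 of the 6 members were called higher in replicate 1 and 0 lower, against 35.8% of all tested genes called higher and 17.2% called lower. The members' median log2 ratio, replicate 1 over replicate 2, was 0.63, against 0.14 for all tested genes.

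Mir18 had the largest ratio of the 6, 0.72 with a counting SE of 0.018, a 1.65-fold difference. Mir20a followed among the called members at 0.70 (SE 0.016, 1.62-fold), and Mir17 stood at 0.56 (SE 0.0090, 1.47-fold). Their adjusted p-values were too small for the software to represent. By ratio these genes ranked 30, 34 and 46 from the top of the 372. Mir92-1 was higher by 0.16 (SE 0.026, 1.12-fold, exact binomial test, adjusted p = 2.63e-09), close to the median of all genes. Mir19b-1 had a ratio of 0.72 with an SE of 0.32 and did not pass (exact binomial test, adjusted p = 0.0682), nor did Mir19a at 0.14 with an SE of 0.19 (adjusted p = 0.606).

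The scaling decides part of this result. TMM, which sets the bulk of genes to no difference, lowers every ratio by 0.17 on the log2 scale. Under TMM, 3 of the 6 members were called higher in replicate 1 and 0 lower, against 21.5% of all tested genes higher and 29% lower. Mir18 (0.55), Mir20a (0.53) and Mir17 (0.39) kept their calls, while Mir92-1 stood at -0.011 (exact binomial test, adjusted p = 0.789) and Mir19a at -0.032 (adjusted p = 0.940). The sign of Mir92-1 and Mir19a thus changed with the scaling, to values within counting error of 0, and that of the other 4 did not. Mir19a was called under neither scaling.

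**Figure D3:**
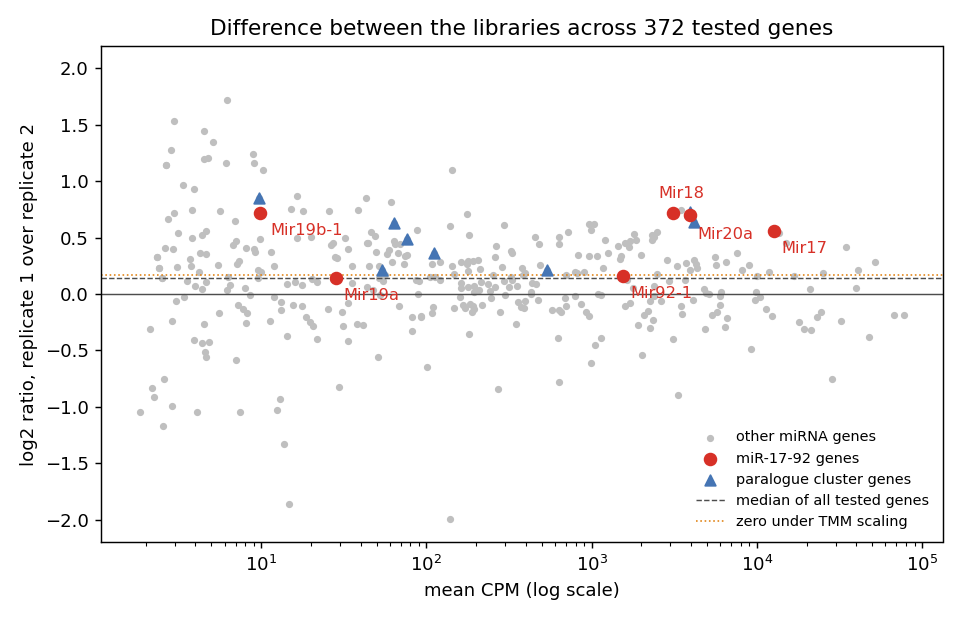
Log2 ratio of replicate 1 over replicate 2, scaled to gene-strand totals, against mean CPM (log axis) for the 372 tested genes, of which 1 lies outside the axis. Red points are the 6 miR-17-92 genes and blue triangles the 8 tested genes of the paralogue clusters. The dotted line marks no difference under TMM, the dashed line is the median of all tested genes (0.14), and Mir17, Mir18, Mir20a and Mir19b-1 lie above it while Mir19a (0.14) and Mir92-1 (0.16) lie close to it.

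Markers of cell types also differed between the libraries. The 4 mesenchymal genes summed to 17643 CPM in replicate 1 and 12119 CPM in replicate 2, with 3 called higher in replicate 1 and 0 lower, or 2 and 0 under TMM. Most of these sums came from Mir214 (16135 and 11066 CPM), and Mir199a-1 had a log2 ratio of -0.08. The 7 epithelial genes summed to 52450 and 67435 CPM, with 2 called higher in replicate 1 and 4 lower, or 1 and 5 under TMM. The difference of these sums lay mostly in Mir203 (21094 and 35599 CPM), while Mir200c, for example, stood at 5148 and 5141 CPM. Of the 7, 3 had log2 ratios above 0 with the gene-strand totals and 2 under TMM. Over all tested genes, 35.8% were called higher and 17.2% lower, or 21.5% and 29% under TMM. None of these 11 genes was at 0. Endothelial Mir126a stood at 41674 CPM in replicate 1 and 54165 CPM in replicate 2. The striated muscle genes summed to 11964 and 13598 CPM, the erythroid genes to 1093 and 1406 CPM, and the leukocyte genes to 567 and 736 CPM, each sum lower in replicate 1. Most of each sum came from 1 gene, namely Mir206 (11447 and 13094 CPM), Mir451a (986 and 1288 CPM) and Mir223 (543 and 710 CPM). In each list 1 gene was called lower in replicate 1 and 0 higher, or 1, 2 and 1 lower and 0 higher under TMM. Mir133b (0.06), Mir208b (0.03) and Mir486 (0.13) had log2 ratios above 0 and were not called. The neural genes summed to 1151 and 911 CPM, of which Mir137 held 740 and 522 CPM. Of the 6 tested neural genes, 2 were called higher in replicate 1 and 0 lower, or 1 and 2 under TMM. Their median log2 ratio was -0.09. Mir9-2 and the 3 Mir124a genes had 0 counts in both libraries. Since reads with several places are in no gene row, a marker count at or near 0 does not show that the mature miRNA was absent. Mir142, Mir1a-2 and Mir9-1 were matched to no row by symbol. The part of these markers in the difference of the miR-17-92 genes was not tested, and replicate 2 was also the deeper library.

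The paralogue clusters arose by duplication from the same ancestor, 1 on the X chromosome with Mir106a, Mir18b, Mir20b, Mir19b-2, Mir92-2 and Mir363, and 1 in an intron of the replication gene Mcm7 with Mir106b, Mir93 and Mir25. In mouse the loss of the Mcm7 cluster worsens the defects that follow loss of miR-17-92. The miR-17-92 genes summed to 21365 ± 5985 CPM, against 8641 ± 2708 CPM for the Mcm7 cluster and 315 ± 65.8 CPM for the X-linked cluster. They exceeded the Mcm7 cluster 2.42-fold in replicate 1 and 2.55-fold in replicate 2, and the X-linked cluster 70.7-fold and 63.7-fold.

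The 4 higher miR-17-92 genes stood far above their X-linked counterparts in both libraries. Mir17 exceeded Mir106a (242 and 419 counts) 170-fold in replicate 1 and 162-fold in replicate 2, and Mir18 exceeded Mir18b (34 and 46 counts) 310-fold and 337-fold. Mir20a was 63.2-fold and 60.3-fold above Mir20b, and Mir92-1 was 28.4-fold and 29.5-fold above Mir92-2, which had 157 and 329 counts. Mir19b-2 had 3 counts in replicate 1 and 14 in replicate 2, against 33 and 49 for Mir19b-1. Against the Mcm7 cluster the picture was closer. Mir20a and Mir106b differed by less than the spread between the libraries, at 3945 ± 1328 CPM and 3946 ± 1373 CPM, and Mir93 stood at 4162 ± 1279 CPM. Mir92-1 was 2.87-fold and 2.97-fold above Mir25.

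**Figure D4:**
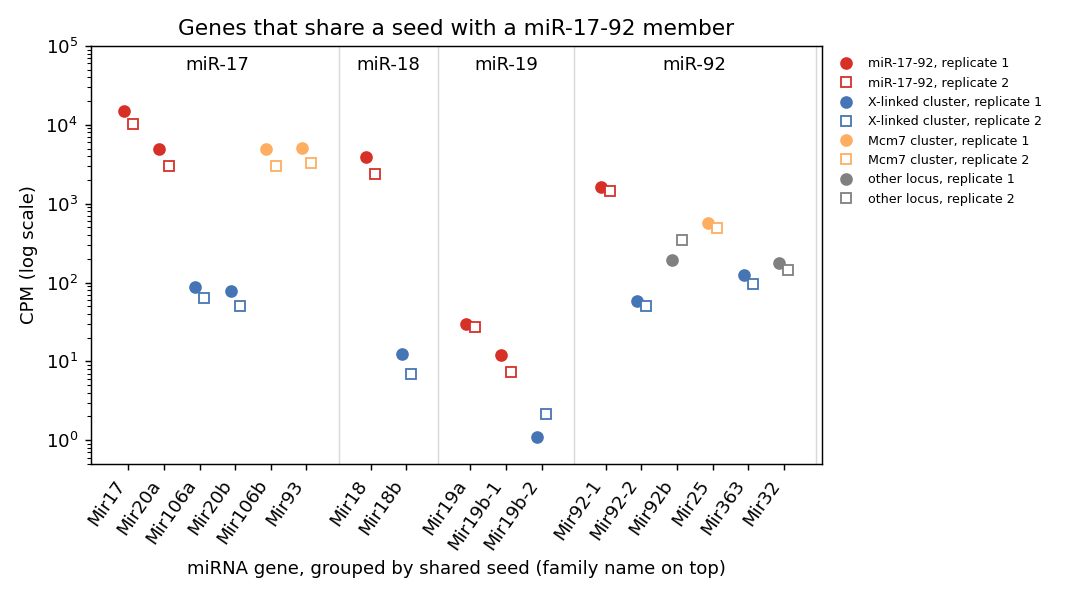
CPM (log axis) of the genes that share a seed with a miR-17-92 member, grouped by seed, in replicate 1 (filled circles) and replicate 2 (open squares), coloured by locus. Mir17, Mir18, Mir19a and Mir92-1 are the highest gene of their seed group in both libraries. Mir367 had 0 counts and is not drawn.

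Grouped by seed, the miR-17-92 genes gave most of the counted reads of all 4 families. For the AAAGUGC seed, Mir17 and Mir20a held 66.4% of the family (95% Wilson interval 66.1 to 66.7) in replicate 1, against 67.7% (67.4 to 67.9) in replicate 2, with Mir93 and Mir106b as the main others. For the AAGGUGC seed, Mir18 held 99.7% in both libraries. For the GUGCAAA seed, Mir19a and Mir19b-1 held 97.4% (92.7 to 99.1) and 94.2% (90.5 to 96.5), of only 117 and 242 counts. For the AUUGCAC seed, Mir92-1 held 59.3% (58.2 to 60.4) and 56.4% (55.7 to 57.2), followed by Mir25 at 533 ± 55.9 CPM and Mir92b at 271 ± 108 CPM. Reads that fit both Mir92-1 and Mir92-2, or both Mir19b genes, are in none of these sums. The counts also do not separate the 2 strands of a hairpin. These are therefore shares of gene counts, and the share of reads that carry each seed cannot be given. Mir6383, whose annotated strand also carries AAAGUGC, had 0 counts in both libraries and was left out of the family.

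In all 3 clusters the genes with the AAAGUGC seed had higher ratios than those with the AUUGCAC seed. In the X-linked cluster, however, Mir106a stood at 0.49 (SE 0.12) and Mir363 at 0.36 (SE 0.097), so their order did not exceed counting error. All 6 genes with the AAAGUGC seed were called higher in replicate 1, with log2 ratios from 0.49 to 0.72, and all 6 remained called under TMM. Over all tested genes, 35.8% were called higher with the totals and 21.5% under TMM. The genes with the AUUGCAC seed in the same 3 clusters had lower ratios, 0.16 for Mir92-1, 0.21 for Mir92-2, 0.21 for Mir25 and 0.36 for Mir363, and none of them was called under TMM. Mir92b, outside the clusters, was lower in replicate 1 (-0.84, exact binomial test, adjusted p = 1.80e-36), while Mir32, also outside them, was higher (0.29, adjusted p = 0.00115) but not called under TMM (0.12, adjusted p = 0.244). The counts of Mir92-1 were 8.19% of the sum of Mir17 and Mir20a in replicate 1 and 11.1% in replicate 2. Those of Mir25 were 5.74% and 7.93% of the sum of Mir93 and Mir106b, so the same shift was seen in the Mcm7 cluster. In the X-linked cluster, Mir92-2 and Mir363 came to 110% and 129% of Mir106a and Mir20b. These ratios within a library do not depend on its scaling, and they were compared after the values were known, so no test is given.

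Of the 9 genes of the paralogue clusters, 8 reached the count minimum and Mir19b-2 did not. Among the 8, 7 were called higher in replicate 1 and 0 lower with the gene-strand totals, against 35.8% and 17.2% of all tested genes. Under TMM 4 were called higher and 0 lower, against 21.5% and 29% of all tested genes. Mir92-2 was the exception, with a log2 ratio of 0.21 (SE 0.14, exact binomial test, adjusted p = 0.209). Their median log2 ratio was 0.56, against 0.63 for the 6 miR-17-92 genes and 0.14 for all tested genes.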

How the data were processed

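Raw read counts per miRNA gene were used as deposited by the authors, 1 file per library with replicates not pooled. Assembly mm10 and annotation GENCODE M4 were used, per the labels and each file's own metadata. No source used here names the aligner or the trimming. Each file has 4 summary rows and count columns for both strands, the gene strand and the opposite strand, the layout of STAR gene counts. The gene-strand column was analysed and summary rows were left out.

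Symbols came from GENCODE M21, matched by identifier without version (1894 of 1973). CPM is the gene-strand count scaled to the library's gene-strand total, given as mean and SD of 2 replicates. With 1 library on each side, the binomial test replaced a replicated model; log2 ratios used a prior of 0.5 counts, and the threshold was 0.05. SciPy 1.17.1, edgeR 4.0.16 (TMM) and DESeq2 1.42.0 (size factors) were used. The test was run on simulated counts that held counting error only, so that run does not show how it behaves with variation between replicates. Named genes are the members, the seed relatives, the 5 genes nearest Mir17 in level and each member's neighbours in level. The members and lists were chosen with earlier results of these data known.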

Additional observations from a re-analysis of the deposited data

How the results depend on the processing

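Scaled to all reads of each file, the cluster sum was 10422 CPM in place of 21365 CPM, because unassigned reads enter the total; leaving out either replicate gave 17132 to 25597 CPM. TMM, DESeq2 size factors, the both-strand column, and totals without the highest gene or without the 6 members gave 20432 to 23148.5 CPM. These moves were less than 1 SD (5985 CPM), which is a wide limit with n = 2. Without genes that share a 20-base stretch, the cluster held 100% of the GUGCAAA family, since Mir19a alone was left, and the AUUGCAC family had no member left to give a value. Genes called higher in replicate 1 numbered 133 with the totals, 80 under TMM and 78 with DESeq2 size factors, and genes called lower numbered 64, 108 and 113. The log2 ratio of Mir92-1 turned to -0.011 under TMM and -0.021 with DESeq2 size factors, and that of Mir19a to -0.032 and -0.042. The counts of members called (4) did not leave 1.5-fold under the alternatives run, although Mir92-1 lost its call under both scalings. No paired comparison of groups was possible because there is 1 group. Depth limits Mir19b-1 and Mir19a, and n = 2 limits every SD.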
